A study of Homo sapiens with 12 samples.

Results

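The genes of sterol and fatty acid synthesis were followed as a list of 41 named genes in 4 branches: 8 of the mevalonate branch, 12 of the late sterol branch, 9 of sterol uptake and regulation, and 12 of the fatty acid branch. Each gene was represented by the brightest of its probe sets that carried 1 gene symbol alone, and 37 of the 41 had such a probe set, out of 19775 genes in all. All 37 lay above the filter on dim probe sets, a signal of 69.8, which kept 12674 genes for testing. FDFT1 and ACSL3 had no probe set listed under their symbol, and the probe sets of CYP51A1 (2) and FADS1 (3) were shared with other symbols, so these 4 genes were not analysed here.

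The cells were of SK-OV-3, a long-established line from a human ovarian cancer. They were cultured for 24 h in 12 dishes, 3 for each of 4 groups: PBS as the control, recombinant BMP2 at 100 ng/ml, DM at 5 µM, and BMP2+DM at these same concentrations. BMP2 is a bone morphogenetic protein, a secreted ligand that signals through SMAD proteins, and DM is a compound named in the labels only by this abbreviation. All groups share the cell line and the time, and the dishes are labelled as biological replicates of this 1 line, so the p-values measure the spread between dishes.

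Cells build sterols from acetyl-CoA. The mevalonate branch makes isoprenoid units and joins them to farnesyl diphosphate, and the late sterol branch turns the squalene made from it into lanosterol and then cholesterol. Most of these genes are driven by the transcription factors SREBP1 and SREBP2, products of SREBF1 and SREBF2. SCAP escorts them out of the endoplasmic reticulum when sterols are scarce, and INSIG1 and INSIG2 hold SCAP back when sterols are abundant. SREBP factors bind sterol regulatory elements and are known to work together with NF-Y, a factor that binds CCAAT.

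The windows of 250 bases before 1 annotated start of each of 6 genes are shown. HMGCS1, MSMO1, HSD17B7 and SC5D were chosen because they were lower with BMP2+DM than with BMP2. INSIG1 and SREBF2 were chosen because they hold both a sterol regulatory element core and a CCAAT. HMGCS1 and SC5D each have another annotated window, which is not shown. The windows are from RefSeq on GRCh38.p14, written 5′ to 3′ on the gene's strand and ending at the base before the start. HMGCS1 is at chr5:43313413-43313662 on the minus strand. The other windows are on the plus strand, at chr4:165327419-165327668 for MSMO1, chr1:162790452-162790701 for HSD17B7, chr11:121292521-121292770 for SC5D, chr7:155297628-155297877 for INSIG1 and chr22:41832855-41833104 for SREBF2. The first 4 windows overlap no annotated gene. The INSIG1 and SREBF2 windows overlap INSIG1-DT and SREBF2-AS1, which are annotated non-coding genes. Capitals mark CCAAT or its reverse complement ATTGG, and the sterol regulatory element core TCANNCCAC.
HMGCS1: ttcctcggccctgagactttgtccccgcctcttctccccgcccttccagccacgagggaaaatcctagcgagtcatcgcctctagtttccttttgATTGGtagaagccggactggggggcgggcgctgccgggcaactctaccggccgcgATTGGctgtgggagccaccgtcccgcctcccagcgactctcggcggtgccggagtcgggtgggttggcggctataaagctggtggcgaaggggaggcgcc
MSMO1: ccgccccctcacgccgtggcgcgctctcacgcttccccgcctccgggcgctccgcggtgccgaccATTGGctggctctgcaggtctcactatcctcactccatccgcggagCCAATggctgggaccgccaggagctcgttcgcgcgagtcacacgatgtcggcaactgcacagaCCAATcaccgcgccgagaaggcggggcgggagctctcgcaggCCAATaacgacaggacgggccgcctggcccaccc
HSD17B7: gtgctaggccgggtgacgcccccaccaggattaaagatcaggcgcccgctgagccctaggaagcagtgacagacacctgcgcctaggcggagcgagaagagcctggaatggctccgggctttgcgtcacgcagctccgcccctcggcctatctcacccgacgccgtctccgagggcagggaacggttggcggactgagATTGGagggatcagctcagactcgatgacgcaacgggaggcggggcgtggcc
SC5D: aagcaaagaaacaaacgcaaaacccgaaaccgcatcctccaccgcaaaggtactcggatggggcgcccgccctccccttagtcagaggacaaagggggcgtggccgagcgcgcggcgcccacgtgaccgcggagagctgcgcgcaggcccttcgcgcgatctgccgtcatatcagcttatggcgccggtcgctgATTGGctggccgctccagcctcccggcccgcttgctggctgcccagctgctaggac
INSIG1: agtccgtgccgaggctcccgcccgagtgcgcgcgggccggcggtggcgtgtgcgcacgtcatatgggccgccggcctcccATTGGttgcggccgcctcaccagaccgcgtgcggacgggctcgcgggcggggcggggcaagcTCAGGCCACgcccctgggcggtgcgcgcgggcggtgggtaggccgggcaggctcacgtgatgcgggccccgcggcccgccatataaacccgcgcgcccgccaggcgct
SREBF2: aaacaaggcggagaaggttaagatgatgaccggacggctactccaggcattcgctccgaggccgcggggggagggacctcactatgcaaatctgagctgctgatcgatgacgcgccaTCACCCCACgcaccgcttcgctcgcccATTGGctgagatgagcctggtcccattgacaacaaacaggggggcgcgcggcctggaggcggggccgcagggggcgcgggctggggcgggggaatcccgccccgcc

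In the windows shown, MSMO1 had 4 CCAAT matches, which began 185, 139, 76 and 34 bases before the start. There HMGCS1 had them at 155 and 100, HSD17B7 at 52 and SC5D at 56. The other HMGCS1 window, at chr5:43313182-43313431, had no CCAAT. The other SC5D window, at chr11:121292602-121292851, had a CCAAT at 137. INSIG1 had a TCANNCCAC match at 108 and a CCAAT at 170, and SREBF2 had them at 133 and 106. ACLY and IDI1 were also lower with BMP2+DM than with BMP2 but are not shown. In its window at chr17:41919023-41919272 ACLY had TCANNCCAC at 244 and CCAAT at 65 and 23, so it too held both. IDI1 had CCAAT matches and none of TCANNCCAC. Of the 41 listed genes, 37 had windows in the promoter table, with 52 windows among them. These are not the same 37 genes as those measured on the arrays. CYP51A1, FADS1 and ACSL3 had windows but were not analysed, and ACAT2, SQLE and FASN were measured but had no window. CCAAT on either strand occurred in 27 of these 52, against 32% of all 35116 windows. By branch it occurred in 6 of 7 mevalonate genes, 8 of 10 late sterol genes, 4 of 9 uptake and regulation genes and 5 of 11 fatty acid genes, against 37% of all genes. TCANNCCAC occurred in 3 of the 52 windows, against 3.14% of all windows, and CACGTG, an E-box, in 5, against 6.34%. TCANNCCAC and CACGTG can share letters, but no matches overlap in the 6 windows shown. A match is a description of the letters, not a binding site.

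The arrays carried the markers of the line, and ERBB2, PAX8, KRT8, KRT18 and EPCAM were above the filter (5 of 5, geometric means from 3794 to 15410). Markers of lipid-making adipocytes and hepatocytes were below it (0 of 4), as were leukocyte markers (0 of 3 measured, with no CD68 probe set). The summed leukocyte signal was 110.4 to 168.7 with PBS, 216.7 to 295.6 with BMP2, 67.6 to 112 with DM and 170 to 287.3 with both, from probe sets that were each below the filter. The sums of the endothelial, the fibroblast, and the adipocyte and hepatocyte markers overlapped between PBS and BMP2. PECAM1 at 260.2 was the 1 endothelial marker of 4 above the filter, and COL1A1 and DCN the 2 fibroblast markers of 4. In RNA from whole cultures, fewer cells of a kind and less RNA per cell cannot be told apart. Median signals ran from 86.7 to 112 over the 12 arrays, and the mean correlation of an array with its own group from 0.934 (BMP2 replicate 1, also the array with the highest median) to 0.956. The 3 BMP2 arrays had the lowest correlations, 0.934, 0.938 and 0.941, beside 0.949 or higher on all other arrays. ID1, a direct target of BMP signalling, gave signals of 17600 to 20000 with PBS, 29710 to 48430 with BMP2, 3579 to 3653 with DM and 14700 to 20070 with both. All 4 ID genes rose with BMP2 and fell with DM. On the 3 BMP2 arrays ID3 gave 9909, 3240 and 9251, and ID2 gave 3408, 1601 and 4361.

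The geometric mean signals of the 37 genes over the 12 arrays ran from 180.3 for MVD to 8179 for SCD. Their pooled standard deviation within groups had a median of 0.1677 on the log2 scale. It was lowest for HSD17B7 (0.0602) and above 0.5 for 4 genes, FADS2, EBP, MVD and ABCA1, with a highest value of 0.8761 for FADS2, so changes of these 4 were measured with the least precision. With 3 arrays against 3, the smallest two-sided p of an exact permutation test is 0.1. Genes were therefore tested with limma across all 12674 genes, and those with an adjusted p (Benjamini-Hochberg) under 0.05 were called. In at least 1 of 6 comparisons 10 of the 37 genes were called, and 27 in none. The share of all genes called in at least 1 comparison was not computed, so this count has no background. Shares of all genes are given below for each comparison.

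The first comparison, BMP2 against PBS, asks what the ligand did to lipid synthesis genes. BMP2 raised IDI1 and MSMO1, 1 gene each of the mevalonate and the late sterol branch, and lowered INSIG2, which codes for an inhibitor of the SREBP pathway. These 3 of 37 genes are 8.11%, against 0.631% of all genes, with 2 of 37 higher against 0.323% of all genes and 1 lower against 0.308%. At an unadjusted p under 0.05, 14 of 37 genes passed (37.8%), against 10.5% of all genes. The 3 arrays of each group did not overlap for 10 genes that were higher, against 8.97% of all genes, and 2 that were lower, against 6.07%.

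IDI1 isomerises isopentenyl diphosphate, the basic isoprenoid unit. Its signal was 2242, 2795 and 1945 with PBS, 3502, 4403 and 4452 with BMP2, 2408, 2861 and 2983 with DM, and 2975, 2952 and 2808 with both. All 3 BMP2 arrays lay above all 9 others. IDI1 was 1.78-fold higher with BMP2 than with PBS (log2 0.83 ± 0.13 SE, adjusted p = 0.00438, limma). The call held when each array was left out in turn but was lost with median centring (adjusted p = 0.0555), without the intensity trend (0.0979), on the second brightest probe set (log2 0.51, 0.162) and when its probe sets were averaged, dim ones included (log2 0.12, 0.938).

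MSMO1 removes methyl groups from lanosterol-derived sterols. Its signal was 7368, 7739 and 6832 with PBS, 8771, 9660 and 10580 with BMP2, 7821, 7681 and 7288 with DM, and 7934, 7531 and 8083 with both. Here too the BMP2 arrays were the highest of the 12 and did not overlap with any other group. MSMO1 was 1.32-fold higher with BMP2 than with PBS (log2 0.40 ± 0.09 SE, adjusted p = 0.0415, limma), and this call was lost when any 1 of 10 arrays was left out (adjusted p from 0.0585 to 0.206). It held only without BMP2 replicate 1 or DM replicate 3, and was lost under 6 of 10 processing alternatives (listed below).

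INSIG2 had signals of 1826, 2163 and 1978 with PBS, 1019, 1369 and 1286 with BMP2, 1598, 1528 and 1714 with DM, and 1682, 1498 and 1754 with both. The BMP2 arrays were the lowest 3, the PBS arrays the highest 3, and the groups with DM lay between them and overlapped each other. INSIG2 was 1.63-fold lower with BMP2 than with PBS (log2 -0.71 ± 0.13 SE, adjusted p = 0.0128, limma). The call was lost without PBS replicate 2 (adjusted p = 0.0764), PBS replicate 3 (0.0644) or BMP2 replicate 1 (0.0697). Without the intensity trend or with only the groups compared it was lost too (2 of 10 processing alternatives).

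Beyond the called genes, the sterol branches lay on the higher side. With BMP2, 7 of 8 mevalonate genes and 8 of 10 late sterol genes had positive differences, with medians of 0.32 and 0.31 on the log2 scale, against 0.03 for all genes tested. Only 4 genes of each of these branches had a second probe set above the filter. On it the 4 mevalonate genes had a median of 0.28 (3 of 4 positive), beside 0.23 on their brightest, and the 4 late sterol genes 0.06 (2 of 4 positive), beside 0.28. The medians of the uptake and regulation branch (0.09, 6 of 9 positive) and of the fatty acid branch (0.10, 6 of 10 positive) were smaller. At an unadjusted p under 0.05 (limma), 10 of the 18 mevalonate and late sterol genes passed (55.6%), against 10.5% of all genes. Among the 10, LBR was lower with BMP2 and 9 were higher: ACAT2, HMGCS1, IDI1, FDPS, SQLE, MSMO1, NSDHL, HSD17B7 and SC5D. Of these, FDPS (log2 0.33, adjusted p = 0.0933) and HSD17B7 (log2 0.46, adjusted p = 0.0626) came nearest to the threshold without passing it. LBR, a sterol reductase of the inner nuclear membrane, had a difference of -0.23 (adjusted p = 0.439).

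**Figure D1:**
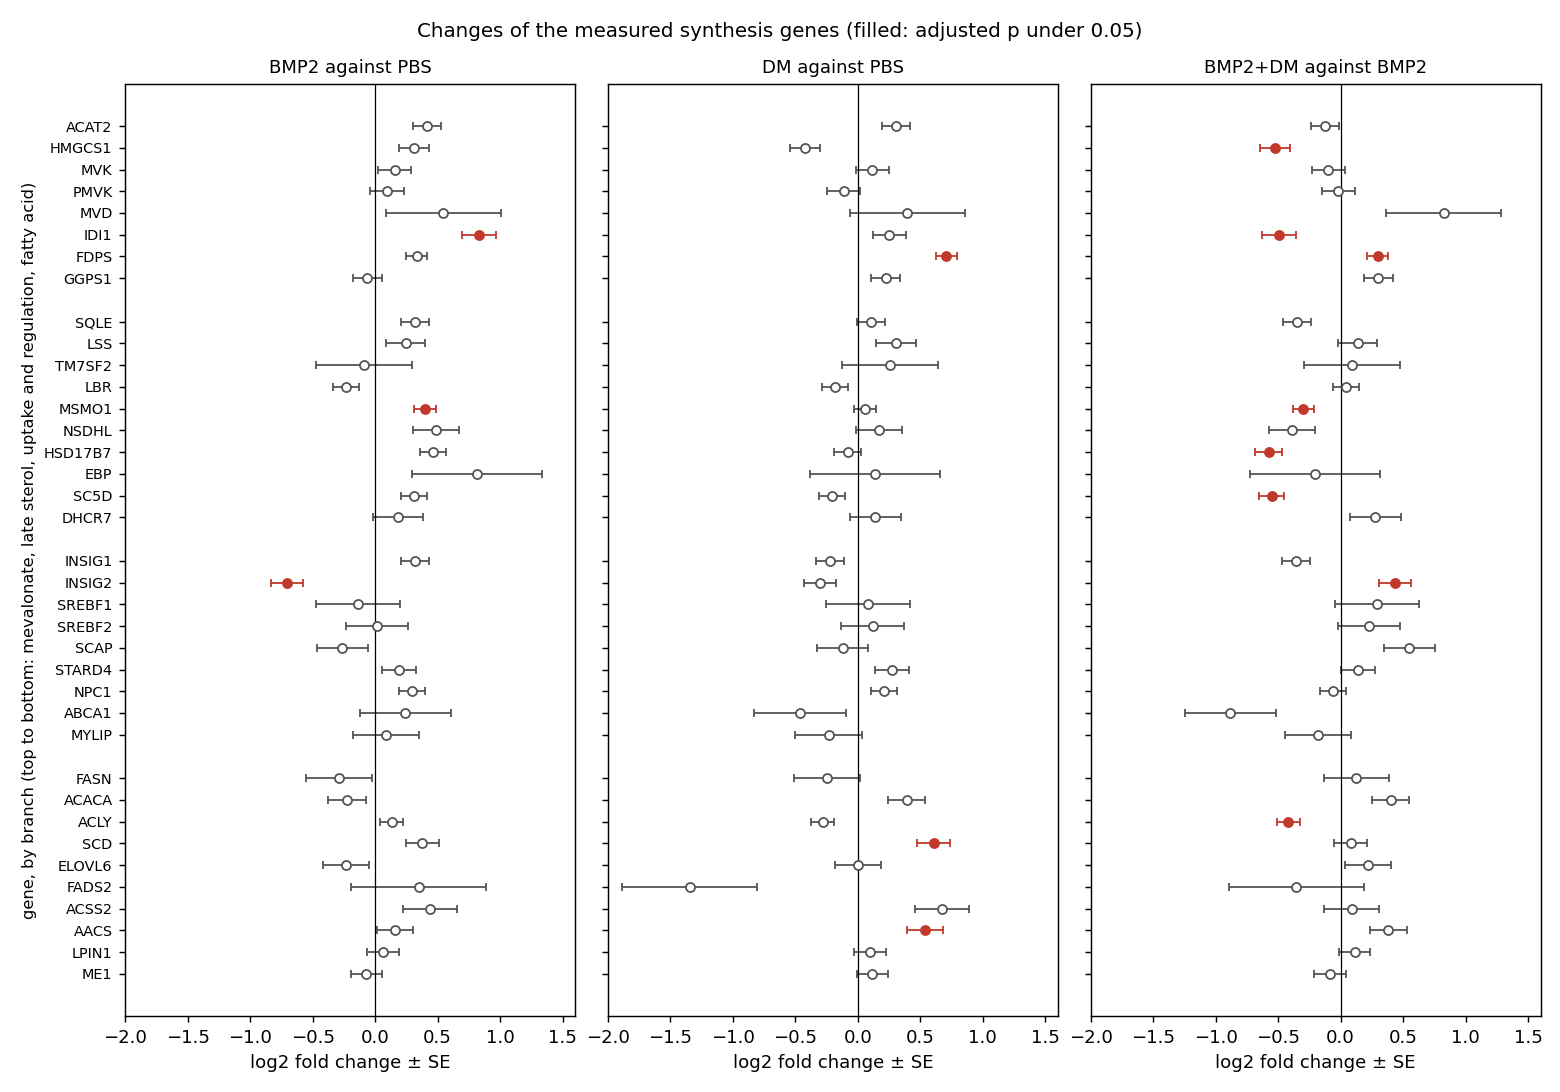
Log2 fold change (horizontal, ± SE from limma, 3 arrays a group) of the 37 measured genes, 1 row a gene in 4 blocks by branch, for 3 comparisons; filled red points are genes with an adjusted p under 0.05. Most mevalonate and late sterol genes lie to the right of 0 for BMP2 against PBS, and the called genes for BMP2+DM against BMP2 lie on both sides, 6 lower and 2 higher.

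The mean of a branch on each array, taken as the log2 difference from the PBS mean, gives the spread between dishes. It is built from the same genes and arrays as the medians above, so it is not separate support. For the mevalonate branch it was 0.00 ± 0.05 with PBS and 0.33 ± 0.03 with BMP2 (SD, n = 3), and the BMP2 arrays (0.304 to 0.3557) lay above the PBS arrays (-0.0608 to 0.0429). The DM arrays (0.18 ± 0.08, from 0.0942 to 0.2538) also lay above all PBS arrays for this branch, and below all BMP2 arrays. For the late sterol branch it was 0.00 ± 0.09 with PBS and 0.29 ± 0.03 with BMP2, and again the arrays of these 2 groups did not overlap. The uptake and regulation branch (0.00 ± 0.21 with PBS, 0.00 ± 0.18 with BMP2) and the fatty acid branch (0.00 ± 0.09 and 0.07 ± 0.10) differed by less than the spread between arrays. These means were not tested. They include MVD and EBP, the dimmest genes of the mevalonate and late sterol branches. For BMP2 against PBS these had log2 differences of 0.55 ± 0.46 SE and 0.82 ± 0.52 SE.

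**Figure D2:**
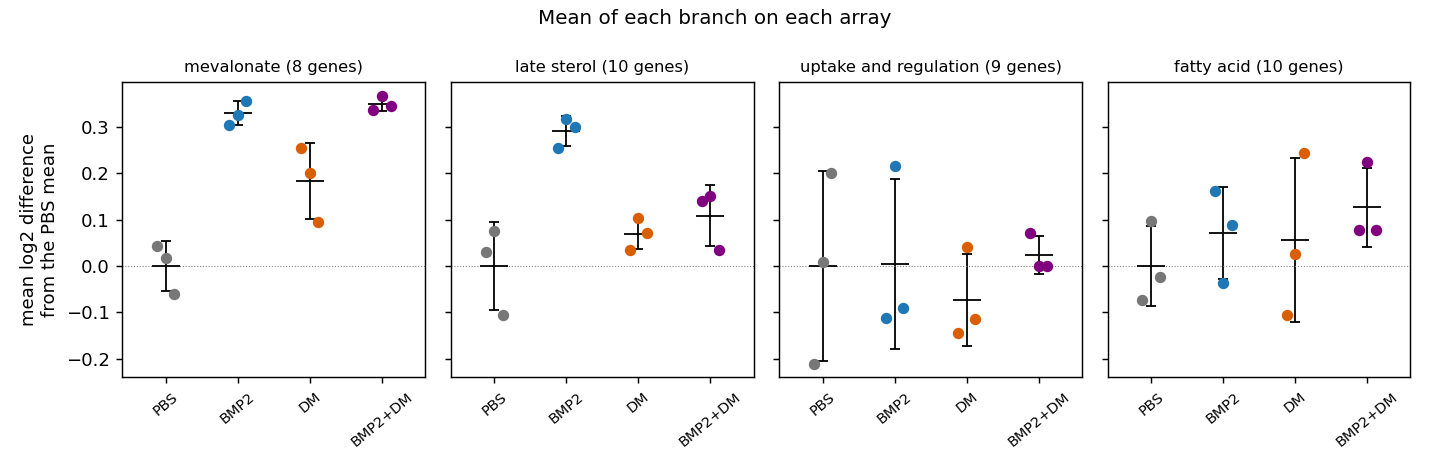
Mean log2 difference from the PBS mean (vertical) over the measured genes of each branch, 1 point per array, with the group mean and SD (3 arrays a group) in black. In the mevalonate panel the BMP2, DM and BMP2+DM arrays lie above all PBS arrays, and in the late sterol panel the BMP2 arrays lie above all arrays of the other groups.

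BMP2+DM was then compared with BMP2, which asks what DM did in cells that had the ligand. Of the 37 genes 8 changed (21.6%, against 7.25% of all genes). HMGCS1 and IDI1 of the mevalonate branch, MSMO1, HSD17B7 and SC5D of the late sterol branch and ACLY of the fatty acid branch fell, by 1.23 to 1.49-fold, which is 6 genes against 3.17% of all genes. FDPS and INSIG2 rose, 2 genes against 4.08% of all genes. At an unadjusted p under 0.05, 15 genes passed (40.5%), against 21.8% of all genes. Arrays did not overlap for 6 higher genes, against 14% of all genes, and 7 lower genes, against 11.8%. This comparison and the first share the BMP2 arrays, which are set against PBS in the first and are the reference here, so high BMP2 arrays raise the first difference and lower this one.

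HMGCS1 makes HMG-CoA, the precursor of mevalonate. Its signal was 3025, 2664 and 2463 with PBS, 2902, 3705 and 3542 with BMP2, 1941, 2003 and 2127 with DM, and 2589, 2049 and 2414 with both. The DM arrays were below all PBS arrays, and the BMP2 arrays above all BMP2+DM arrays, whereas PBS and BMP2 overlapped. HMGCS1 fell 1.44-fold with BMP2+DM against BMP2 (log2 -0.52 ± 0.12 SE, adjusted p = 0.0122, limma). The call was lost without BMP2 replicate 3 (adjusted p = 0.0544) or BMP2+DM replicate 2 (0.0762). Median centring, the second brightest probe set and dropping the trend also lost it (3 of 11 processing alternatives). Against PBS, HMGCS1 differed by -0.42 with DM (adjusted p = 0.0645).

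HSD17B7 is a ketosteroid reductase of the demethylation steps. Its signal was 1405, 1379 and 1428 with PBS, 1905, 1832 and 2082 with BMP2, 1391, 1295 and 1301 with DM, and 1329, 1261 and 1311 with both. The 3 BMP2 arrays stood apart from the other 9, which spanned 1261 to 1428. HSD17B7 was 1.49-fold lower with BMP2+DM than with BMP2 (log2 -0.57 ± 0.11 SE, adjusted p = 0.00295, limma), and the call held when each of the 12 arrays was left out in turn.

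SC5D is the desaturase that forms the ring double bond of late sterol precursors. It gave 2539, 2640 and 2828 with PBS, 3371, 3267 and 3294 with BMP2, 2190, 2314 and 2433 with DM, and 2395, 1982 and 2430 with both. The BMP2 arrays were the highest, the PBS arrays lay between, and the DM and BMP2+DM arrays overlapped below all PBS arrays. SC5D was 1.47-fold lower with BMP2+DM than with BMP2 (log2 -0.55 ± 0.10 SE, adjusted p = 0.00279, limma), also when each array was left out in turn.

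IDI1 and MSMO1, both higher with BMP2, were lower again with BMP2+DM than with BMP2. The change of IDI1 was -0.49 ± 0.13 on the log2 scale (1.41-fold lower, adjusted p = 0.0298, limma) and was lost without BMP2 replicate 2, BMP2 replicate 3 or any 1 of the BMP2+DM arrays (adjusted p from 0.0685 to 0.115). That of MSMO1 was -0.30 ± 0.09 (1.23-fold lower, adjusted p = 0.0452). It was lost when any 1 of 10 arrays was left out (adjusted p from 0.0502 to 0.184) and held only without BMP2 replicate 1 or DM replicate 3. Of the processing alternatives, 4 of 11 lost the IDI1 call and 6 of 10 that of MSMO1. SQLE, the oxygenase of squalene, had a difference of -0.35 (adjusted p = 0.0734), with signals of 4865 to 6771 with BMP2 and 4227 to 5045 with both, which overlapped.

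ACLY makes cytosolic acetyl-CoA from citrate and so feeds both sterol and fatty acid synthesis. Its signal was 6090, 6931 and 6874 with PBS, 7196, 6802 and 7814 with BMP2, 5861, 5630 and 4889 with DM, and 5385, 5596 and 5328 with both. All 6 arrays with DM lay below all 6 without it. ACLY fell 1.34-fold with BMP2+DM against BMP2 (log2 -0.42 ± 0.09 SE, adjusted p = 0.00985, limma), a call lost without BMP2 replicate 3 (adjusted p = 0.0542). Median centring, averaged probe sets, the second brightest probe set and dropping the trend also lost it (4 of 11 processing alternatives). The difference of DM from PBS was -0.28 (adjusted p = 0.111).

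INSIG2 was 1.35-fold higher with BMP2+DM than with BMP2 (log2 0.43 ± 0.13 SE, adjusted p = 0.0492, limma). This call held only without BMP2 replicate 2 or DM replicate 3 and was lost when any 1 of the other 10 arrays was left out (adjusted p from 0.055 to 0.187). Under 7 of 10 processing alternatives it was lost as well. INSIG1, the counterpart of INSIG2 that is itself a target of SREBP factors, had signals of 3098, 2718 and 2909 with PBS, 3497, 3311 and 4111 with BMP2, 2487, 2805 and 2204 with DM, and 2916, 2805 and 2779 with both. The BMP2 arrays of INSIG1 were the highest 3 of the 12. Its differences were 0.32 for BMP2 against PBS (adjusted p = 0.283) and -0.36 for BMP2+DM against BMP2 (adjusted p = 0.0596), so it was not called. The signs of INSIG1 and INSIG2 were opposite in both comparisons.

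The transcription factors and their escort were not called in any comparison. SREBF1 gave 207, 405.9 and 394.9 with PBS, 339.8, 379.1 and 194.3 with BMP2, 274.7, 333.6 and 428.1 with DM, and 287.2, 311.7 and 511.6 with both. SREBF2 gave 348.8, 400.4 and 390.3 with PBS, 292, 479.2 and 402.6 with BMP2, 445, 306.7 and 510.7 with DM, and 495.2, 366.8 and 499.9 with both. For both genes all 4 groups overlapped on these brightest probe sets, and the differences lay between -0.14 and 0.29 with SEs of 0.34 and 0.25 in the comparisons of 2 groups. The other 2 probe sets of SREBF2 differed from this: for DM against PBS they had 0.78 and -1.15, and for BMP2+DM against BMP2 1.13 (adjusted p = 0.0916) and 0.67, none of them called. SCAP gave 784, 998.3 and 1165 with PBS, 734.6, 1173 and 612.9 with BMP2, 833.4, 1036 and 819.8 with DM, and 1180, 1177 and 1196 with both. The BMP2+DM arrays of SCAP were higher than all others, and its difference from BMP2 was 0.55 ± 0.20 SE (adjusted p = 0.117).

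Other genes of uptake and regulation were not called on their brightest probe sets. NPC1, which releases cholesterol from lysosomes, had differences of 0.30 with BMP2 (adjusted p = 0.287) and 0.21 with DM (adjusted p = 0.327) from PBS. STARD4, a sterol carrier, had 0.19 and 0.28. ABCA1, the cholesterol exporter, had a difference of -0.88 ± 0.36 between BMP2+DM and BMP2 (adjusted p = 0.163) on its brightest probe set. Its other probe set above the filter had -1.11 there (adjusted p = 0.0313 over all probe sets above the filter) and -1.17 for BMP2+DM against PBS (adjusted p = 0.029), both past the threshold, where the brightest had -0.64 (adjusted p = 0.368). MYLIP, a ubiquitin ligase for lipoprotein receptors, had -0.18 for BMP2+DM against BMP2. Over the 4 branches the medians for BMP2+DM against BMP2 were -0.06 for mevalonate, -0.25 for late sterol, 0.14 for uptake and regulation and 0.10 for fatty acid genes, against 0.03 for all genes. The late sterol branch mean was 0.11 ± 0.06 with both against 0.29 ± 0.03 with BMP2, and its arrays did not overlap, while the mevalonate branch mean was 0.35 ± 0.02 with both against 0.33 ± 0.03 (SD, n = 3). This mevalonate mean includes MVD, the dimmest gene of the list, at 0.82 ± 0.46 SE for BMP2+DM against BMP2. In that comparison 5 of the 8 mevalonate genes had negative differences and 3 positive ones.

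**Figure D3:**
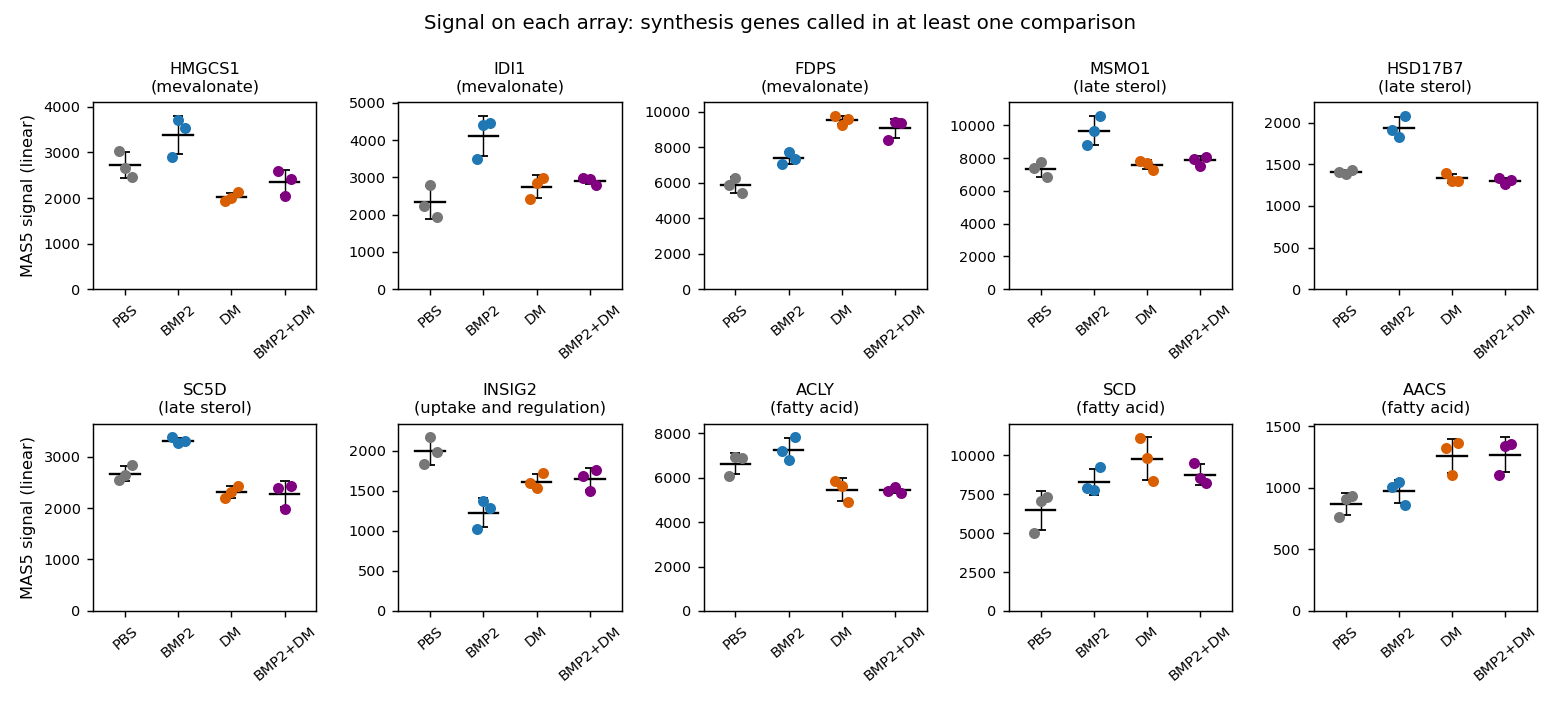
MAS5 signal on each array (vertical, linear, from 0) of the 10 genes called in at least 1 comparison, with the group mean and SD (3 arrays a group) in black. In the IDI1, MSMO1, HSD17B7 and SC5D panels the 3 BMP2 arrays are the highest, in the INSIG2 panel they are the lowest, and in the FDPS panel the highest signals are those with DM.

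DM against PBS shows the compound without added ligand. DM raised FDPS, SCD and AACS, and no gene of the list was called lower. Negative differences were seen in 13 of the 37 genes, none of them called. The 3 called genes of 37 (8.11%) compare with 3.57% of all genes, or 1.86% for higher genes alone. The 0 genes called lower compare with 1.71%. At an unadjusted p under 0.05, 10 genes passed (27%), against 16.2% of all genes. The arrays did not overlap for 10 higher genes, against 11.9% of all genes, and 4 lower genes, against 9.94%.

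FDPS makes farnesyl diphosphate, the branch point to sterols, prenylated proteins, ubiquinone and dolichol. Its signal was 5875, 6286 and 5398 with PBS, 7054, 7730 and 7327 with BMP2, 9740, 9265 and 9603 with DM, and 8426, 9404 and 9351 with both. PBS, BMP2 and the 2 groups with DM formed 3 levels without overlap, and the groups with DM overlapped each other. FDPS was 1.63-fold higher with DM than with PBS (log2 0.71 ± 0.08 SE, adjusted p = 5.99e-05, limma) and 1.55-fold higher with BMP2+DM than with PBS (adjusted p = 0.000249). Both calls held under all 22 alternatives tried. Against BMP2, BMP2+DM was 1.23-fold higher (log2 0.30, adjusted p = 0.0386). That call was lost without any 1 of BMP2 replicates 1 and 3, DM replicates 1 and 2, and BMP2+DM replicates 2 and 3 (adjusted p from 0.0507 to 0.143). Under 6 of 10 processing alternatives it was lost as well.

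SCD is the desaturase that makes oleate from stearate. Its signal was 5017, 7071 and 7295 with PBS, 7901, 7757 and 9246 with BMP2, 11100, 9860 and 8343 with DM, and 9528, 8573 and 8194 with both. The PBS arrays were the lowest 3, and the other groups overlapped. SCD was 1.52-fold higher with DM than with PBS (log2 0.61 ± 0.13 SE, adjusted p = 0.0148, limma). The call was lost without PBS replicate 1 (adjusted p = 0.0696), DM replicate 1 (0.0824) or DM replicate 2 (0.0527). Averaged probe sets, the second brightest one and dropping the trend also lost it (3 of 11 processing alternatives).

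AACS activates acetoacetate for lipid synthesis. Its signal was 761.5, 908.6 and 932.6 with PBS, 1003, 1045 and 862.7 with BMP2, 1320, 1102 and 1360 with DM, and 1103, 1341 and 1356 with both. All 6 arrays with DM lay above all 6 without it. AACS was 1.45-fold higher with DM than with PBS (log2 0.54 ± 0.14 SE, adjusted p = 0.0477, limma) and 1.46-fold higher with BMP2+DM than with PBS (adjusted p = 0.0416). The first call was lost without any 1 of the PBS arrays, BMP2 replicate 1, DM replicates 1 and 3, or BMP2+DM replicates 2 and 3 (adjusted p from 0.0503 to 0.185). The other was lost without any 1 of the PBS arrays, DM replicate 1, or BMP2+DM replicates 2 and 3 (adjusted p from 0.0548 to 0.158). Processing alternatives lost the first call in 7 of 10 cases and the other in 5 of 10.

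The rest of the fatty acid branch was uneven. ACSS2, which activates acetate, had a difference of 0.67 ± 0.22 between DM and PBS (adjusted p = 0.108), and ACACA, the carboxylase that makes malonyl-CoA, 0.39 (adjusted p = 0.19). FASN, the synthase itself, had -0.25 (adjusted p = 0.722), and ELOVL6, an elongase of saturated chains, 0.00. FADS2, a desaturase of polyunsaturated chains, had -1.34 ± 0.54 (adjusted p = 0.215), and this rests on DM replicate 1 at a signal of 37.5 beside 246.7 and 252.1 on the other DM arrays. LPIN1, a phosphatidate phosphatase, and ME1, the malic enzyme that supplies NADPH, had 0.10 and 0.12. The medians for DM against PBS were 0.24 for mevalonate, 0.12 for late sterol, -0.12 for uptake and regulation and 0.11 for fatty acid genes, against 0.02 for all genes.

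BMP2+DM against DM shows the ligand in cells that had the compound, and no gene of the list was called, against 0.0473% of all genes. At an unadjusted p under 0.05 there were 3 (8.11%), against 8.88% of all genes: MVD at 0.98, FADS2 at 1.34 and ME1 at -0.27. IDI1 had a difference of 0.09 ± 0.13 there, MSMO1 of 0.05 ± 0.09 and INSIG2 of 0.03 ± 0.13, beside 0.83, 0.40 and -0.71 for BMP2 against PBS. Outside the list, ID1, ID3 and ID4 were called higher with BMP2+DM than with DM (log2 2.25, 2.59 and 2.92, limma). ID2 had 1.45 and was not called (adjusted p = 0.0618, limma).

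The interaction is the difference between BMP2+DM and DM less that between BMP2 and PBS, and it tests whether the effect of BMP2 differs with DM. No gene of the list was called, against 0.118% of all genes, while 11 passed an unadjusted p under 0.05 (29.7%), against 8.7% of all genes. Among them IDI1 had -0.74 ± 0.19 (adjusted p = 0.218), INSIG2 0.73 ± 0.18 (adjusted p = 0.214) and FDPS -0.41 ± 0.12 (adjusted p = 0.281). ACAT2, SQLE, MSMO1, NSDHL, HSD17B7, SC5D and SCD also had negative values, from -0.56 to -0.34, and SCAP had 0.67. The medians were -0.16 for mevalonate and -0.34 for late sterol genes, against 0.05 for uptake and regulation, -0.06 for fatty acid genes and 0.01 for all genes. The difference between the BMP2 effects thus did not pass the threshold for any single gene.

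BMP2+DM against PBS compares both reagents with the control. FDPS and AACS rose, 2 of 37 genes (5.41%), against 4.09% of all genes, or 2.41% for higher and 1.69% for lower genes. At an unadjusted p under 0.05, 14 passed (37.8%), against 18.7% of all genes. MVD, which decarboxylates mevalonate diphosphate, had the largest positive difference of the list in this comparison, 1.37 ± 0.46 (adjusted p = 0.106), with signals of 128.6 ± 53.2 with PBS and 330.9 ± 135 with both (SD, n = 3).

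Where a gene had several probe sets above the filter, they often disagreed in sign. In 19 genes this could be compared. For BMP2 against PBS all probe sets of a gene had the same sign in 7 of the 19 and differed in 12, and for BMP2+DM against BMP2 they had the same sign in 11 and differed in 8. The 3 probe sets of INSIG1 had 0.32, 0.23 and 0.22 in the first comparison and -0.36, -0.37 and -0.14 in the other. Those of IDI1 had 0.83, 0.51 and -0.61, the last on the dimmest one, and then -0.49, -0.39 and 0.08. HMGCS1 had 0.31 and -0.10, then -0.52 and -0.47, and NSDHL, a sterol dehydrogenase, 0.48 and -0.53 in the first comparison. ACLY had -0.42, -0.47 and -0.14 for BMP2+DM against BMP2. SCD had 0.61, 0.24, 0.00 and 0.05 for DM against PBS. With the second brightest probe set in place of the brightest, the calls of HMGCS1 (0.18), ACLY (0.157) and IDI1 (0.126) for BMP2+DM against BMP2 and of SCD for DM against PBS (0.677) were lost. FDPS, MSMO1, HSD17B7, INSIG2 and AACS had 1 probe set each, so no second one was there to compare. The probe sets used for IDI1 and HSD17B7 are of the type that can also match other transcripts, whose share in their signal was not tested.

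**Figure D4:**
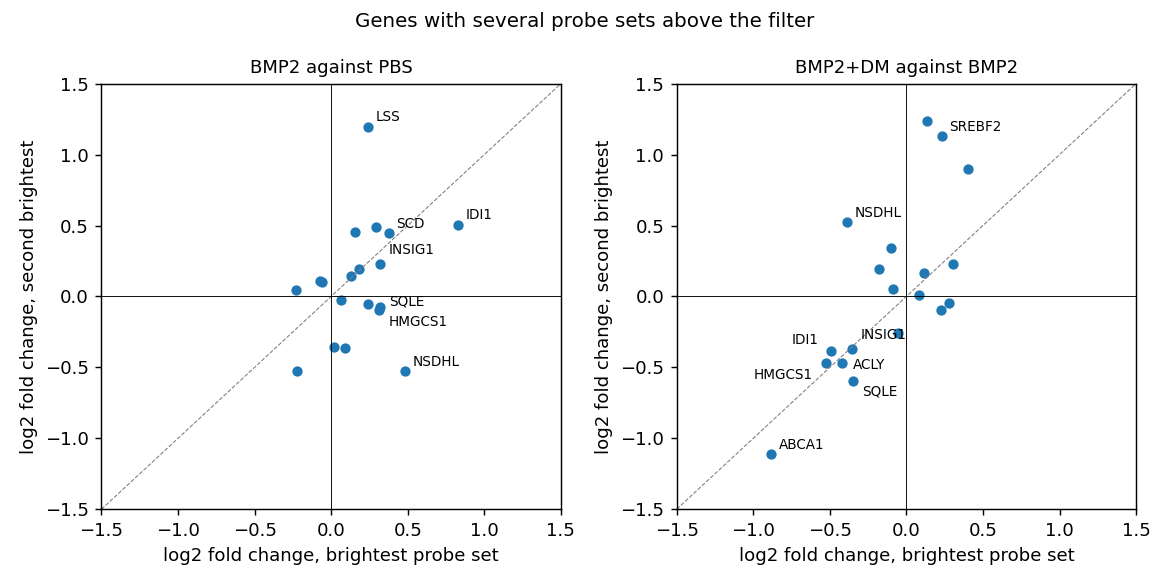
Log2 fold change of the second brightest probe set (vertical) against that of the brightest (horizontal) for the 19 genes with several probe sets above the filter, in 2 comparisons; the dashed line marks equal values. IDI1 and INSIG1 lie in the upper right for BMP2 against PBS and in the lower left for BMP2+DM against BMP2, whereas NSDHL has opposite signs in both.

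Neighbouring pathways were followed in lists of their own. Of 9 tested genes for SREBP processing and sterol sensing, MBTPS1, the protease that makes the first cut of SREBP, rose with BMP2+DM against BMP2 (log2 0.51, adjusted p = 0.0192) and against PBS (log2 0.55, adjusted p = 0.0174), and the other 8 were not called. Of 10 tested genes that use isoprenoids, COQ2, which prenylates the ubiquinone ring, fell with DM against PBS (log2 -0.75, adjusted p = 0.0229), with BMP2+DM against BMP2 (-0.69) and with BMP2+DM against PBS (-0.66). FNTA, a subunit of the protein farnesyltransferase, rose with DM (log2 0.42, adjusted p = 0.0458). Neither list had a call for BMP2 against PBS, nor a gene at an unadjusted p under 0.05 (0 of 9 and 0 of 10, limma, against 10.5% of all genes).

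Of 19 tested genes for fatty acid elongation, activation and glycerolipid synthesis, ELOVL5, an elongase of polyunsaturated chains, rose with BMP2 (log2 0.39 ± 0.08 SE, adjusted p = 0.0334, limma) and was lower with BMP2+DM than with BMP2 (log2 -0.54, adjusted p = 0.000444). HSD17B12, the reductase of the same elongation cycle, rose with DM (log2 0.52, adjusted p = 0.00305). HACD2, its dehydratase, fell with BMP2+DM against BMP2 (log2 -0.44, adjusted p = 0.0082). AGPAT2, an acyltransferase of phosphatidate synthesis, rose in that comparison (log2 0.87, adjusted p = 0.000467), as did DGAT1, which makes triglyceride (log2 0.65, adjusted p = 0.0388). The rest of the 19 were not called in any comparison. Called genes were 21.1% of the 19 for BMP2+DM against BMP2, against 7.25% of all genes. For DM against PBS they were 5.26%, against 3.57% of all genes, and for BMP2 against PBS 5.26%, against 0.631%.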

How the data were processed

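RNA of 12 SK-OV-3 cultures was hybridised to 12 Affymetrix arrays. The deposited values are linear signal intensity values per probe set, which the authors computed with MAS5, per the submitters' processing notes (version not given in the sources used here). Trimmed means (2% trimmed) from 495.8 to 496.1 show that the arrays were already scaled, and no further normalization was applied. The number of arrays, 3 a group, limits the precision.

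Gene names came from a table of the array's probe sets (41091 with 1 symbol, 1801 with several, 11721 unlisted of 54613). Signals were raised to a floor of 1 (396 values) and taken to log2, and each gene's brightest probe set with 1 symbol was used. Genes brighter than the median probe set were fitted in 1 limma model (limma 3.58.1, R 4.3.3) over all 12 arrays with group means, no block, and moderated variances with a trend on intensity (residual df 8, prior df 9.24). Tests were two-sided, with Benjamini-Hochberg adjustment over 12674 genes. Code was tested on simulated data. The genes and lists were chosen with earlier results of these data known. All listed genes could be named, with values on every array for called genes and for SREBF1, SREBF2, SCAP, INSIG1 and INSIG2, and up to 4 called genes for each other list, beyond which DGAT1 was added. Promoters came from RefSeq (GRCh38.p14).

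Alternatives were quantile normalization, centring each array on its median, log2(signal + 32), no filter, a filter that keeps the brightest 30%, the averaged probe sets of each gene, the second brightest probe set (genes with 1 kept it), no trend, robust moderation, only the groups compared, a replicate block, and each array left out in turn. All but the left-out arrays are the processing alternatives, 10 or 11 for a call, as the second brightest probe set applied only to some genes.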

Additional observations from a re-analysis of the deposited data

How the results depend on the processing

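For BMP2 against PBS, 3 of the listed genes were called, against 1 with median centring, 1 with averaged probe sets, 1 with the second brightest probe set, 1 with only the groups compared and 0 without the intensity trend. For DM against PBS the 3 calls became 1 with averaged probe sets, 1 with the second brightest and 1 without the trend. For BMP2+DM against BMP2 the 8 calls became 1 with median centring, 5 without the filter, 2 with averaged probe sets, 2 with the second brightest, 2 without the trend and 5 with only the groups compared. For BMP2+DM against PBS the 2 calls became 1 each with median centring, without the filter, with averaged probe sets and without the trend. BMP2+DM against DM and the interaction had 0 calls under each alternative. Of the 16 calls, none reversed in direction under any alternative. The calls of HSD17B7 and SC5D were lost under 1 of 22 alternatives each, median centring (adjusted p = 0.0536) and the mean of probe sets (adjusted p = 0.335).

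With 1 array left out, the count ran from 1 to 3 for BMP2 against PBS (1 without PBS replicate 2 or PBS replicate 3), from 1 to 3 for DM against PBS (1 without PBS replicate 1 or DM replicate 1), from 2 to 9 for BMP2+DM against BMP2 (2 without BMP2 replicate 3, 3 without BMP2+DM replicate 2, 4 without BMP2+DM replicate 3, and 5 without DM replicate 1, DM replicate 2 or BMP2+DM replicate 1), and from 1 to 3 for BMP2+DM against PBS (1 without any 1 PBS array, DM replicate 1, or BMP2+DM replicates 2 or 3). The cause of these losses was not tested.

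With a replicate block the counts were 2 for BMP2 against PBS, 2 for DM against PBS, 5 for BMP2+DM against BMP2 and 1 for BMP2+DM against PBS. Deviations of same-numbered arrays from their group means correlated at -0.026 to 0.059, with 0 of 18 pairs over 0.1. For 3 of 12 arrays, the best-correlated array in every other group was the one of the same number. These values show no strong pairing by number, and whether a weak one exists was not tested.

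The late sterol median for BMP2 against PBS was 0.18 with averaged probe sets (9 genes) beside 0.31 (10 genes). With the second brightest probe set in place for genes that have several, and the single one kept for the others, it was 0.06 (4 of 8 positive). EBP and SC5D dropped out there, as their second probe sets lay below the filter, and on their brightest they had 0.82 and 0.31. Over only the genes with a second one above the filter, a choice made after seeing the data, the median was 0.06 (2 of 4 positive). For BMP2+DM against BMP2 the late sterol median was 0.04 with the mean of probe sets, and the mevalonate median 0.04 (0.10 with the second brightest put in place), so these 2 medians changed sign. The mevalonate median was also 0.00 without BMP2+DM replicate 3.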

Other observations

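Genes of sterol storage and transport (10 tested) and of fatty acid oxidation (14 tested) had no call for BMP2 against PBS in limma, against 0.631% of all genes, and 2 genes of each list were at an unadjusted p under 0.05 (20% and 14.3%, against 10.5% of all genes). CAV1, which codes for the sterol-binding coat protein of caveolae, fell with DM against PBS (log2 -0.43 ± 0.08 SE, adjusted p = 0.0036, limma), with BMP2+DM against BMP2 (log2 -0.64, adjusted p = 5.98e-05) and with BMP2+DM against PBS (log2 -0.45, adjusted p = 0.00288). LIPA, the lysosomal acid lipase that frees cholesterol from its esters, and NPC2, which hands that cholesterol to NPC1, rose with BMP2+DM against BMP2 (log2 0.50, adjusted p = 0.0112, and 0.47, adjusted p = 0.0209). ECI1, an isomerase of the mitochondrial oxidation of unsaturated fatty acids, rose with BMP2+DM against BMP2 (log2 0.58, adjusted p = 0.0174) and against PBS (log2 0.65, adjusted p = 0.0121), and the other 13 oxidation genes were not called in any comparison.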
